A study of Mus musculus with 18 samples.

Results

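The genes of 4 families of ATP-dependent chromatin remodelling complex were examined for MYC binding in mouse liver tumours that differed in Arid1a, itself a gene of one of these complexes. The list held 46 of the 21887 protein-coding genes on the chromosomes used: 26 SWI/SNF genes, 13 NuRD genes, 4 ISWI genes and 3 genes of the INO80 type. Of the SWI/SNF genes, 14 were grouped as subunits shared between forms of the complex. Another 7 were grouped as BAF-specific (BAF is the form that holds ARID1A or ARID1B). PBAF, the form that holds ARID2, PBRM1 and BRD7, was given 4 and the non-canonical form 1. Each gene was placed in 1 group only, whether or not its product also joins another form. The list was chosen by function, but with earlier results of these data known, so its share of bound genes is a description. A gene was called bound in a library when the summit of a MYC peak lay within 1 kb of either end of its RefSeq span.

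The series held 18 samples of frozen FVB liver tumour: a MYC library and an input library for each of 3 replicates of 3 genotypes. Homo tumours came from mice of about 100 days with LAP-tta, both Arid1a alleles floxed (fl/fl), Alb-cre and TRE-MYC. Het tumours came from mice of about 70 days with LAP-tta, 1 floxed Arid1a allele (fl/+), Alb-cre and TRE-MYC. WT tumours came from mice of about 55 days with LAP-tta, both Arid1a alleles floxed and TRE-MYC, but no Cre. All 3 groups carried the liver tTA driver and the TRE-MYC transgene, which makes MYC once doxycycline is withdrawn. Albumin-Cre acts in hepatocytes and other albumin-expressing cells, so the remaining cells of a Homo tumour keep their Arid1a. Age moved with genotype over all 3 groups and cannot be told apart from it. Cre was absent in WT only, so it cannot be told apart from genotype in comparisons with WT. Lists of peaks of 1 antibody hold no expression values and no reads over the deleted exons, so neither the liver identity nor the loss of Arid1a was checked. Whether the 3 libraries of a genotype are 3 animals is not stated, so each p-value covers the spread between libraries, which may be technical.

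ATP-dependent remodellers use a helicase-like ATPase to slide, eject or exchange nucleosomes. SWI/SNF opens promoters and enhancers, NuRD joins remodelling to histone deacetylation, ISWI spaces nucleosomes in regular arrays, and INO80-type complexes move or exchange histone H2A variants. MYC binds DNA as a dimer with MAX, preferably at the E-box CACGTG, and its sites in tumours lie mostly at active promoters.

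MYC peaks lay at the ends of 17 of the 46 genes in at least 1 of the 9 libraries, against 14.9% of all protein-coding genes. At least 2 libraries had a peak at 12 of the 46 genes (26.1%, exact 95% interval 14.3 to 41.1%), against 8.03% of all protein-coding genes. Without WT replicate 3, the longest list, the count was 5 of 46, against 5.14% of all genes. Those 5 were Smarca4, Pbrm1, Mbd3, Ruvbl1 and Smarcc1, which are also the members with a peak in at least 3 libraries (10.9%, against 4.98% of all genes). The 3 SWI/SNF genes among them encode the catalytic ATPase BRG1, the PBAF bromodomain subunit BAF180 and the scaffold BAF155. The other 2 encode a methyl-CpG-binding domain protein of NuRD and a AAA+ ATPase of INO80-type complexes.

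The promoter sequences of 5 bound members, picked because their windows hold a motif, are shown to place the summits beside it. The windows of some other bound members, Mbd3 and Smarcc1 among them, hold none. Those of Brd7, Dpf2 and Smarcd1 hold a motif but are not shown. Pbrm1, Bcl7b and Bcl7c are the 3 bound members whose window holds the E-box, and Smarca4 and Ruvbl1 are the bound members with only its variant that had a peak in the most libraries. Each is the RefSeq GRCm38.p6 (mm10) sequence of 250 bases before to 50 bases from an annotated start, read 5′ to 3′ on the strand of the gene. Capitals mark the E-box CACGTG and a variant, CACGCG, searched on both strands (its other strand reads CGCGTG). The windows are chr9:21615919-21616218 on the plus strand for Smarca4, chr14:31018888-31019187 on the plus strand for Pbrm1, chr6:88465159-88465458 on the plus strand for Ruvbl1, chr5:135168122-135168421 on the plus strand for Bcl7b and chr7:127708717-127709016 on the minus strand for Bcl7c.
Smarca4: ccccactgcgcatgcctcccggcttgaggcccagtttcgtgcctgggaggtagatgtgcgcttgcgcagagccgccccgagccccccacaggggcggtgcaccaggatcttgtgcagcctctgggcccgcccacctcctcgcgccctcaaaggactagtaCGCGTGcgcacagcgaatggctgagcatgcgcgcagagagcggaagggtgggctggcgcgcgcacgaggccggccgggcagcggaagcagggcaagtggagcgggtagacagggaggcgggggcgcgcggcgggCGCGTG
Pbrm1: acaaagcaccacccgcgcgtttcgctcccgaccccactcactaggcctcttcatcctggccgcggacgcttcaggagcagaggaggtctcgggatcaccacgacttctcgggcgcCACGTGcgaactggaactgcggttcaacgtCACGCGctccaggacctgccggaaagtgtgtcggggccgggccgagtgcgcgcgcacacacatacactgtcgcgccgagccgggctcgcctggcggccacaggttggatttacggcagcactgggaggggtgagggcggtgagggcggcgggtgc
Ruvbl1: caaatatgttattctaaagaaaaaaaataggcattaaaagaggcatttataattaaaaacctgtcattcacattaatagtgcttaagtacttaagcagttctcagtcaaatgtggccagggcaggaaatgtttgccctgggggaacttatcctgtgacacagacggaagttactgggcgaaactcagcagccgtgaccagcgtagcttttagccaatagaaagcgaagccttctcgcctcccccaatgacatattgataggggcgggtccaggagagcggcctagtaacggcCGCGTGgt
Bcl7b: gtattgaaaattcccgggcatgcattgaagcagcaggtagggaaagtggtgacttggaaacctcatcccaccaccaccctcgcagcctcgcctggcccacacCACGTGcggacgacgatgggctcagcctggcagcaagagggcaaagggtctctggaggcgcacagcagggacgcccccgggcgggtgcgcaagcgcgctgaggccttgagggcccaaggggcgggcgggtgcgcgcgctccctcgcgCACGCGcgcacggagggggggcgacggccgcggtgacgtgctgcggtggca
Bcl7c: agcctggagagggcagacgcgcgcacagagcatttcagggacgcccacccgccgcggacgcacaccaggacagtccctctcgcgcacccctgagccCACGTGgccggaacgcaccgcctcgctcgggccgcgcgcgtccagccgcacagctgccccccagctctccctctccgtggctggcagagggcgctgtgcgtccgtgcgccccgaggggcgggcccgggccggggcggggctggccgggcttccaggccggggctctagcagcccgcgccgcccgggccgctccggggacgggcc

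The lists differed widely in length, which bears on every count given here. The Homo lists held 112, 51 and 303 peaks in replicates 1 to 3, the Het lists 1713, 1869 and 378, and the WT lists 92, 1567 and 4291. Input depth solved from the lists was 3.37 to 3.69 reads per kb in Homo, 3.63 to 4.34 in Het and 4.04 to 6.27 in WT, so every WT input was deeper than every Homo input. Among peaks at the lowest background of a list, the lowest fold listed was 6.57 to 8.05 in Homo libraries, 5.5 to 5.98 in Het libraries and 5.34 to 6.41 in WT libraries. These depths and lowest folds rest on 2, 16 and 20 peaks in Homo replicates 1 to 3, and 81, 85 and 52 in Het. In WT replicates 1 to 3 they rest on 34, 138 and 255 peaks. A gene with no peak in a Homo list may have a fold that other lists would have included. The part of these unequal peak numbers in the lowest folds was not tested. Homo replicate 2 and WT replicate 1 stood apart, with 9 and 14 gene-end peaks.

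**Figure D1:**
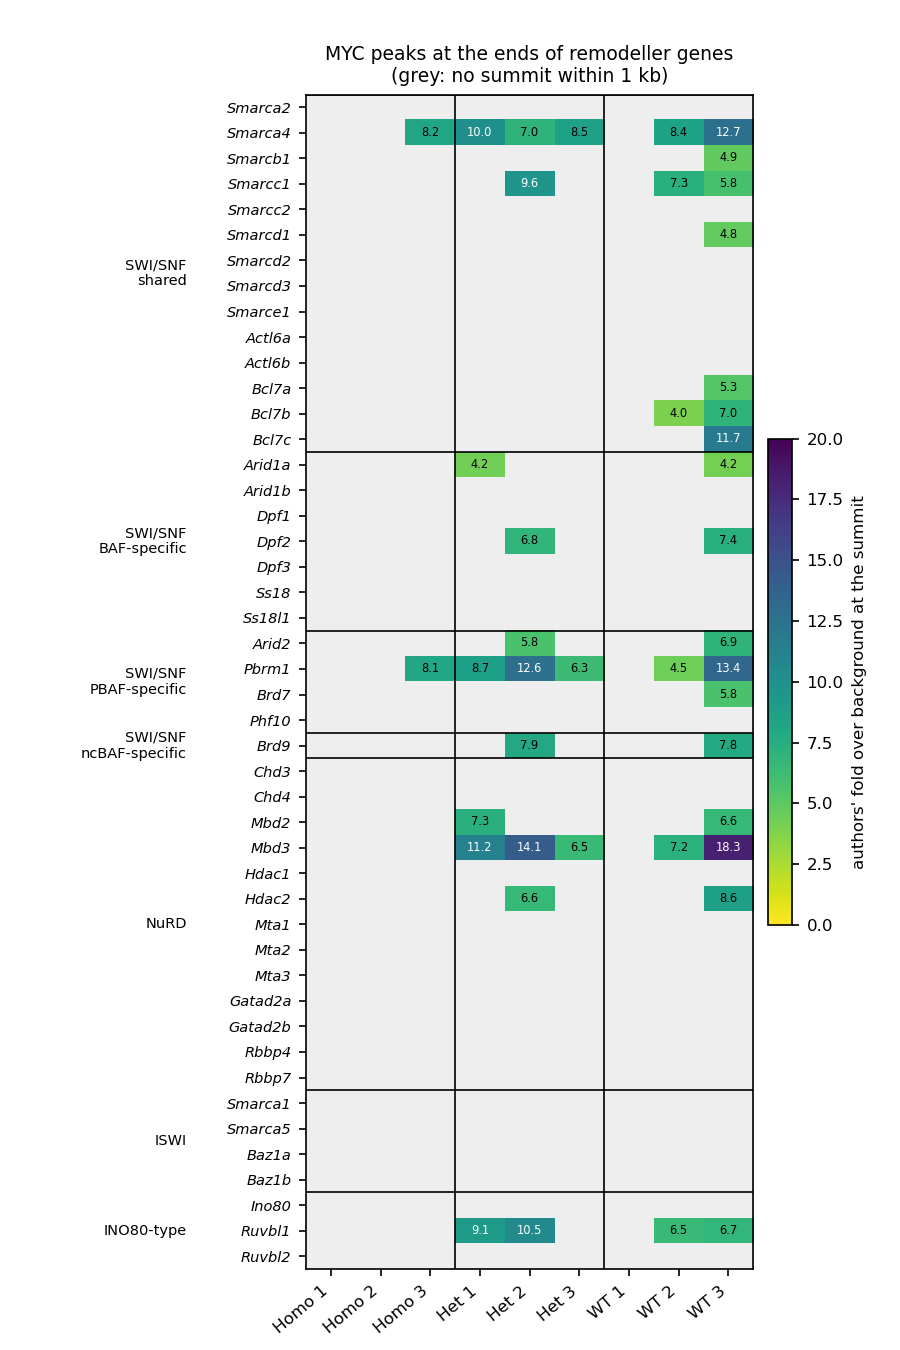
Authors' fold over background (colour and printed value) of the highest MYC peak within 1 kb of either end of each of the 46 genes (down the page, grouped by complex) in each of the 9 MYC libraries (across, 3 Homo, 3 Het, 3 WT). Grey cells have no such peak; WT replicate 3 has all 17 bound genes, and Homo replicates 1 and 2 and WT replicate 1 have none.

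Smarca4, which encodes BRG1, a catalytic ATPase of BAF and PBAF, had a peak in 6 libraries of all 3 genotypes. Its fold over background was 8.15 in Homo replicate 3, with no peak in Homo replicates 1 and 2. It was 10.02, 7.02 and 8.52 in Het replicates 1, 2 and 3, and 8.42 and 12.66 in WT replicates 2 and 3. The WT replicate 3 value was the highest and the Het replicate 2 value the lowest, and the Homo value lay inside the Het range and below both WT values. Within its own list the peak ranked 87 of 303 in Homo replicate 3, 84 of 378 in Het replicate 3 and 253 of 4291 in WT replicate 3. The 6 summits lay at chromosome 9, positions 21616028 to 21616083, which is -141 to -86 bases from the annotated start, around the variant motif at -90 in the sequence above. The 5 peaks that could be solved held 39 to 93 MYC reads at the summit.

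The other catalytic ATPase, Smarca2 (BRM), had no peak at either end in any library. It had 1 peak within its span, 30433 bp from the nearer end, with fold 7.47 in WT replicate 3. The paralogous ATPase genes thus stood at 6 and 0 libraries by the same rule.

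Of the other shared SWI/SNF subunits, Smarcc1 (BAF155, a scaffold) had a peak in no Homo library, in Het replicate 2 with fold 9.60, and in WT replicates 2 and 3 with folds 7.34 and 5.83. The peaks of Het replicate 2 and WT replicate 2 lay 392 to 415 bases into the gene. WT replicate 3 had 2 peaks there, 1 at -84 and 1 of fold 5.07 at 418. Bcl7b, a small accessory subunit, was bound in WT replicates 2 and 3 only, with folds 3.95 and 6.98 at -74 and -97. Its peak in WT replicate 2 was among the lowest of that list, at rank 1499 of 1567.

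4 shared subunits had a peak in WT replicate 3 only. Bcl7c, a second BCL7 protein, had the highest of these folds, 11.68 at rank 342 of 4291, with its summit at -141, next to the E-box at -154. That summit also lay within 1 kb of an end of Mir762. The third BCL7 gene, Bcl7a, reached fold 5.35. Smarcb1 (SNF5), a core subunit that contacts the nucleosome, had fold 4.87 and Smarcd1 (BAF60A) fold 4.82. The summit at Smarcd1 also lay within 1 kb of ends of Asic1 and Gm34939. These 3 folds ranked 3327, 3665 and 3702 of 4291. Smarcc2, Smarcd2, Smarcd3, Smarce1, Actl6a and Actl6b had no peak at an end in any library.

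**Figure D2:**
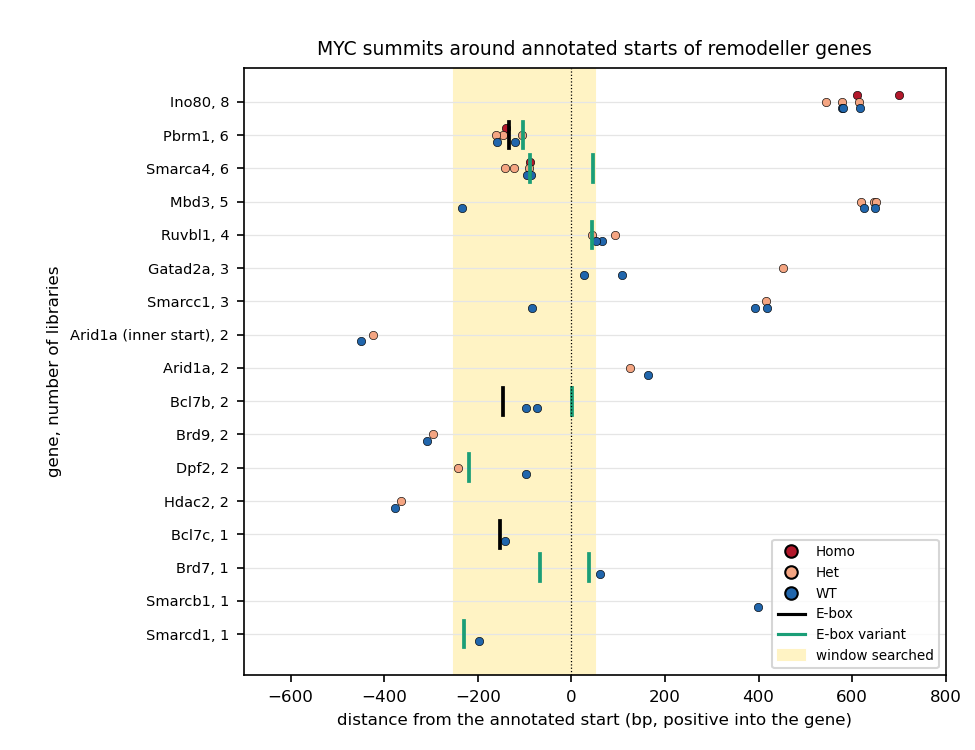
Distance of each MYC summit (points, coloured by genotype) from the annotated start of the gene, in bp and positive into the gene, for each start with a summit within 1 kb, with the number of libraries after the gene name. Black and green ticks mark the E-box and its variant in the searched window (yellow); the summits of Smarca4 and Pbrm1 lie within it in all 6 libraries, and those of Mbd3 lie 618 to 651 bp into the gene except for 1 peak.

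By the 1 kb rule at span ends, the PBAF-specific genes included a member bound in 6 libraries, and no BAF-specific gene was bound in more than 2. Of the 4 PBAF-specific genes, 2 had a peak in at least 2 libraries, and of the 7 BAF-specific genes also 2. With lists this short, these counts are a description of the genes and not a contrast of the complexes. Pbrm1, which encodes the polybromo subunit BAF180 that reads acetylated histones, had a peak in 6 libraries, the same ones as Smarca4. Its fold was 8.07 in Homo replicate 3, with no peak in the other Homo libraries. It was 8.70, 12.58 and 6.26 in Het replicates 1, 2 and 3, and 4.45 and 13.37 in WT replicates 2 and 3. The 2 WT values enclose all others, and their ranks were 1432 of 1567 and 209 of 4291. The summits lay at -160 to -105, in the stretch that holds the E-box at -135 and the variant motif at -105, and the peaks held 52 to 104 summit reads. The same summits lay within 1 kb of an end of Gnl3, which encodes the nucleolar GTP-binding protein nucleostemin, so the peak cannot be assigned to 1 of the 2 genes.

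Arid2, the PBAF counterpart of Arid1a, had folds of 5.77 in Het replicate 2 and 6.93 in WT replicate 3. Its summits lay 632 and 959 bp from its end, also within 1 kb of an end of Gm38469. Brd7, a PBAF bromodomain subunit, had fold 5.75 in WT replicate 3 only, and Phf10, which encodes a PHD-finger subunit, had no peak. Brd9, the bromodomain subunit of the non-canonical complex, had folds of 7.90 in Het replicate 2 and 7.77 in WT replicate 3, with summits also at the end of Trip13.

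Arid1a itself, the gene targeted in these mice, lies at chromosome 4, positions 133679008 to 133756769. Near its span end it had low peaks in 2 libraries, with fold 4.25 in Het replicate 1 and 4.19 in WT replicate 3. Both stood at percentile 6.0 of their lists, at ranks 1610 of 1713 and 4025 of 4291, where percentile 100 is the highest fold. A second annotated start, 2784 bp inside the span, had peaks of fold 7.74 in Het replicate 2 and 10.81 in WT replicate 3, at -423 and -450. Over both starts, Arid1a thus had a peak in Het replicates 1 and 2 and in WT replicate 3. No Homo list had a peak at either start. Dpf2, a BAF-specific PHD-finger subunit, had folds of 6.82 in Het replicate 2 and 7.44 in WT replicate 3. Its summits also lay within 1 kb of an end of Gm42067. Arid1b, the paralogue of Arid1a, and Dpf1, Dpf3, Ss18 and Ss18l1 had no peak at an end.

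Mbd3 had the highest fold of any member in any library. MBD3 is the methyl-CpG-binding domain protein that defines one form of NuRD, and MBD2 defines the other. No Homo library had a peak at Mbd3. Its fold was 11.23, 14.14 and 6.49 in Het replicates 1, 2 and 3, and 7.23 and 18.28 in WT replicates 2 and 3. It was thus in every Het list and in both long WT lists, at rank 75 of 1869 in Het replicate 2 and 59 of 4291 in WT replicate 3. The summits lay 618 to 651 bases into the gene and the peaks held 68 to 120 summit reads. WT replicate 3 had a second peak there of fold 5.07 at -233. With reads and background scaled down by calculation to the depth of the shallowest input, the −log10 p at Mbd3 was 22.75, 36.61 and 15.67 in Het replicates 1, 2 and 3, and 11.66 and 34.84 in WT replicates 2 and 3. All 5 values stayed above 10.

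Mbd2 had folds of 7.31 in Het replicate 1 and 6.60 in WT replicate 3. Hdac2, a NuRD histone deacetylase, had folds of 6.64 in Het replicate 2 and 8.63 in WT replicate 3, with summits at -365 and -377. The other 10 NuRD genes had no peak at an end: the ATPases Chd3 and Chd4, the deacetylase Hdac1, Mta1, Mta2 and Mta3, Gatad2a and Gatad2b, and the histone-binding Rbbp4 and Rbbp7. Gatad2a had peaks at an annotated start inside its span, with folds of 9.14 in Het replicate 2, 6.0 in WT replicate 2 and 6.18 in WT replicate 3. The summits nearest to Chd4 lay 1285 to 1354 bp from its end and at the end of Nop2, with folds of 14.66 in Het replicate 2, and 10.16 and 7.31 in WT replicates 2 and 3.

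None of the 4 ISWI genes had a peak at an end in any library. Smarca5 (SNF2H), the main ISWI ATPase, lay 988306 bp from the nearest summit of any list, and Smarca1 (SNF2L) on the X chromosome lay 5131834 bp from it. Baz1a and Baz1b encode large partner subunits of ISWI. Baz1a had peaks within its span in 2 libraries with folds of 5.07 and 7.71, and the summits nearest to Baz1b lay 4685 to 4772 bp outside it.

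Of the INO80-type genes, Ruvbl1 had a peak in 4 libraries and Ruvbl2 in none, although their products, the AAA+ ATPases RUVBL1 and RUVBL2, form 1 joint ring. Ruvbl1 had no peak in the Homo libraries. Its fold was 9.09 and 10.50 in Het replicates 1 and 2, and 6.53 and 6.72 in WT replicates 2 and 3. Both Het folds were above both WT folds, but folds of separate lists depend on each input and give no test. The summits lay 44 to 93 bases into the gene, next to the variant motif at 42. After thinning, the −log10 p was 13.93 and 18.08 in the Het libraries, and 8.69 and 9.97 in the WT libraries, so the WT peaks fell just under the limit of 10.

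Ino80, the ATPase gene of the INO80 complex, was unbound by the span-end rule, but its annotated start lies 998 bp inside the span end, and there it had a peak in 8 of 9 libraries. The folds were 7.38 and 5.42 in Homo replicates 2 and 3. They were 4.02, 8.71 and 6.03 in Het replicates 1, 2 and 3, and 7.82, 9.27 and 8.88 in WT replicates 1, 2 and 3. Homo replicate 1 was the only library without this peak. All 3 WT folds were above both Homo folds, and the Het folds overlapped those of both. Folds of separate lists depend on each input, so this order has no test. The summits lay 545 to 700 bases into the gene from that start, at chromosome 2, positions 119476987 to 119477142. They lay 1543 to 1698 bp from the span end, with no other gene end of any biotype within 1 kb. The peaks held 29 to 95 summit reads over backgrounds of 0.67 to 6.0 input reads.

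Ino80, Smarca4 and Pbrm1 had a summit near a start in at least 6 libraries, as did 0.566% of all genes with a start. Ino80 was one of 13 genes (0.0743% of the 17492 with an annotated start) that had a summit within 1 kb of a start in at least 8 libraries. It was the only member with such a summit in at least 2 Homo libraries, against 0.246% of all genes with a start. Homo replicate 2 and WT replicate 1, which had few gene-end peaks, each listed it, at rank 39 of 51 and 62 of 92. Without those 2 libraries it had a peak in 6. By annotated starts, 16 of the 37 members with a start in the RefSeq table had a summit in at least 1 library, against 16.1% of all genes with a start. In at least 2 libraries it was 12 of 37 (32.4%), against 8.71%.

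Just outside the 1 kb limit, a second summit lay 1098 to 1164 bp outside the span of Pbrm1. Its folds were 7.77 in Homo replicate 3, 4.85 in Het replicate 2, and 6.65 and 9.46 in WT replicates 2 and 3. It was not within 1 kb of a protein-coding gene end. Whether it lies inside Gnl3, which shares the first Pbrm1 summit, was not examined, so it cannot be assigned to Pbrm1. Ss18 came next, with summits 1158 to 1244 bp inside its span and folds of 5.61 in Het replicate 1, 7.31 in Het replicate 2 and 5.48 in WT replicate 3. Some members had peaks repeated across libraries farther from their ends. Dpf1, a BAF subunit gene known mainly from neurons, had 4 summits within 10 bp of each other, 3804 to 3814 bp inside its span. Their folds were 4.61 and 4.90 in Het replicates 1 and 2, and 8.26 and 8.57 in WT replicates 2 and 3. A summit 4285 to 4348 bp outside the far end of Bcl7c was listed in 6 libraries. Its fold was 8.27 in Homo replicate 1, 8.43, 12.6 and 5.73 in Het replicates 1, 2 and 3, and 10.13 and 10.97 in WT replicates 2 and 3. It was not within 1 kb of a protein-coding gene end.

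By complex, 8 of 26 SWI/SNF genes (30.8%) had a peak in at least 2 libraries, 3 of 13 NuRD genes (23.1%), 1 of 3 INO80-type genes and 0 of 4 ISWI genes, all beside the 8.03% of all protein-coding genes. Without WT replicate 3 the counts were 3 for SWI/SNF, 1 for NuRD, 1 for INO80 type and 0 for ISWI, and without Het replicate 2 the SWI/SNF count was 5. After scaling to the shallowest input it was 2 for SWI/SNF and 1 for NuRD. Among SWI/SNF genes, 3 of 14 shared, 2 of 7 BAF-specific, 2 of 4 PBAF-specific and the 1 non-canonical gene met this count. The difference between complexes was not tested.

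A second list of 45 genes from other remodellers and accessory subunits gave 5 (11.1%, exact 95% interval 3.71 to 24.1%) with a peak in at least 2 libraries, near the 8.03% of all protein-coding genes. Cecr2, which encodes an ISWI-associated bromodomain protein, was bound in Homo replicate 3, Het replicates 1 and 2, and WT replicates 2 and 3, with folds of 4.62 to 9.72. Yy1, a zinc-finger factor that joins INO80, was bound in 4 libraries, Chrac1, a histone-fold partner of ISWI, in 3, and Srcap, the ATPase of an H2A.Z-exchanging complex, in 3.

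**Figure D3:**
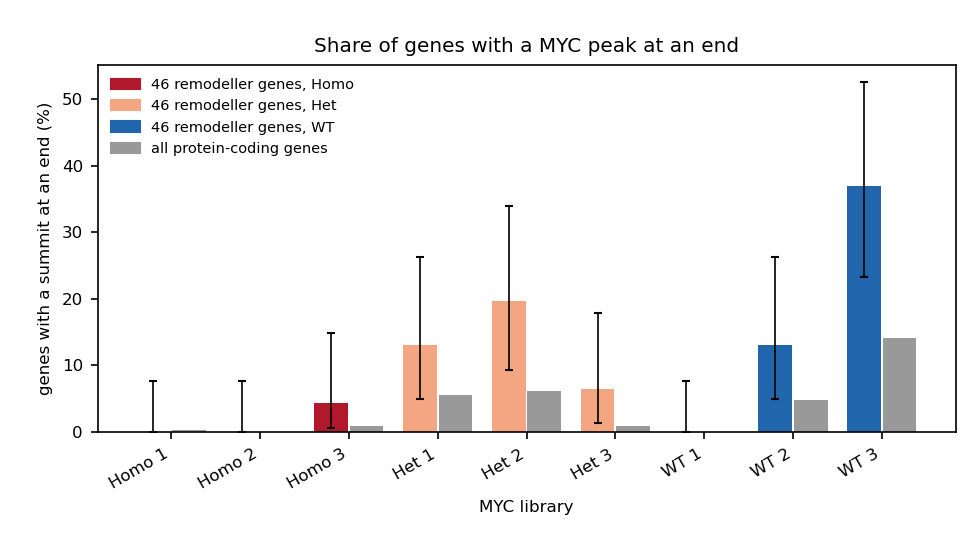
Percent of genes with a MYC summit within 1 kb of an end in each library, for the 46 remodeller genes (coloured bars, with exact 95% intervals that cover counting error only) and for all protein-coding genes (grey bars). The remodeller share reaches 4.35% in Homo replicate 3, 19.6% in Het replicate 2 and 37.0% in WT replicate 3, and the grey share moves with it.

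Across genotypes, members had 0, 0 and 2 bound genes in Homo replicates 1 to 3, where 0.324%, 0.0548% and 0.918% of all protein-coding genes were bound. The Het libraries had 6, 9 and 3 of 46, where 5.58%, 6.14% and 0.854% of all genes were bound. The WT libraries had 0, 6 and 17 of 46, where 0.0731%, 4.86% and 14.1% of all genes were bound. The mean was 0.667 ± 1.15 members in Homo, 6.0 ± 3.0 in Het and 7.67 ± 8.62 in WT (SD, n = 3 each), and no shorter list held more bound members than a longer one. All 17 genes were bound in WT replicate 3, so every other library's bound members were contained in that list.

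Homo lists had fewer bound genes on average, but no pair of genotypes passed a test against the spread between libraries. The number of protein-coding genes bound was 94.7 ± 96.7 in Homo, 917.0 ± 635.1 in Het and 1389.7 ± 1562.8 in WT (SD, n = 3 each). On the log10 scale Homo minus Het was -1.084 (exact permutation test, adjusted p = 0.45), Homo minus WT -0.829 (adjusted p = 0.45) and Het minus WT 0.255 (adjusted p = 0.8). The tests were two-sided with Benjamini-Hochberg adjustment over the 3 pairs, and 3 libraries against 3 allow no p below 0.1. Without WT replicate 1, Het minus WT was -0.429, of the opposite sign.

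Bound in at least 1 library of a genotype were 2 members in Homo, 11 in Het and 17 in WT, against 1.03%, 7.85% and 14.3% of all genes. Gene by gene, no member was bound in at least 2 Homo libraries, against 0.238% of all genes, so none could be Homo-specific by that count. Bound in at least 2 Het and 0 Homo libraries were Mbd3 and Ruvbl1, 2 of 46 (4.35%), against 3.04% of all genes. Bound in at least 2 WT and 0 Homo libraries were Smarcc1, Bcl7b, Mbd3 and Ruvbl1, 4 of 46 (8.7%), against 3.7% of all genes. Without WT replicate 2, or without WT replicate 3, that count was 0. Leaving out Het replicate 1 or 2 gave 1 for the Het count, and leaving out Homo replicate 3 gave 4, since Smarca4 and Pbrm1 have their only Homo peak there.

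Smarca4, Pbrm1, Mbd3 and Ruvbl1 were bound in at least 2 Het and at least 2 WT libraries, as were 2.94% of all genes. These 4 were all the members bound in at least 2 Het libraries (3.98% of all genes), and 6 members were bound in at least 2 WT libraries (4.66% of all genes). Bcl7b alone was bound in at least 2 WT and 0 Het libraries, against 0.649% of all genes, and no member had the opposite pattern, against 0.0868%. WT replicates 2 and 3 were the only WT libraries with member peaks, so each count of at least 2 WT libraries is 0 without either of them, and without Het replicate 2 the count for WT and not Het was 2. The 3 comparisons share libraries. Of those 6 members, 2 had a Homo peak, Smarca4 and Pbrm1. Of all 1019 protein-coding genes bound in at least 2 WT libraries, 209 had one (20.5%).

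**Figure D4:**
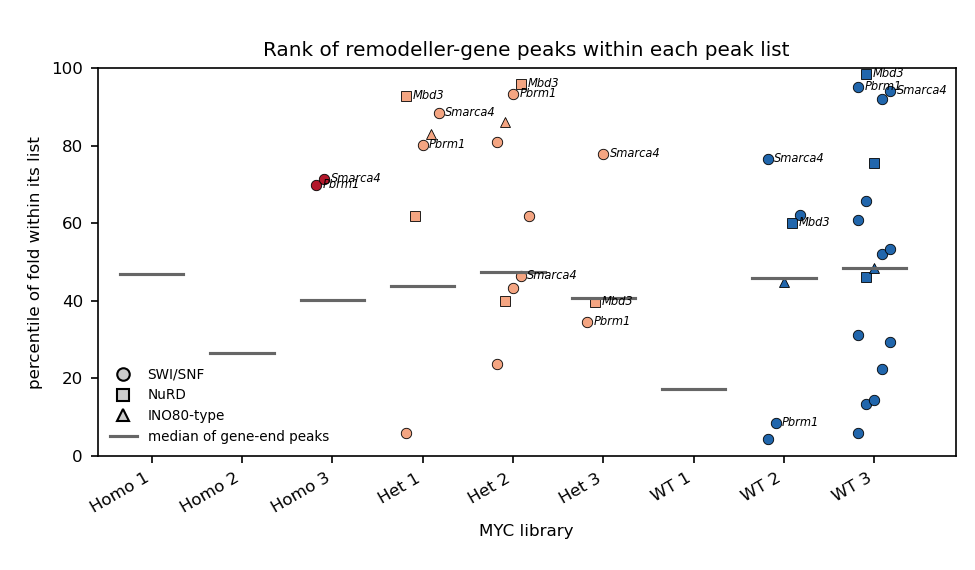
Percentile of each bound member's highest peak within its own list (points coloured by genotype; 100 is the highest fold) in each MYC library, with the median of all gene-end peaks in that library. Members spread over nearly the whole range in WT replicate 3, and in Het replicate 1 all but 1 of 6 lie above the middle of the list.

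In rank within their lists, member peaks spread widely. The median percentile of members was 70.6 in Homo replicate 3 (2 genes), against 40.2 for all gene-end peaks of that list. In Het replicates 1, 2 and 3 it was 81.6, 61.9 and 39.8 (6, 9 and 3 genes), against 43.8, 47.4 and 40.7 for gene-end peaks. In WT replicates 2 and 3 it was 52.4 and 52.2 (6 and 17 genes), against 45.8 and 48.4. Against the middle of the whole list, 2 of 2 members lay above it in Homo replicate 3, 5 of 6, 5 of 9 and 1 of 3 in Het replicates 1, 2 and 3, and 3 of 6 and 9 of 17 in WT replicates 2 and 3. The median fold of all peaks was 6.81 in Homo replicate 3 and 6.8 in WT replicate 3. Since the Homo value rests on 2 genes in a list of 303 peaks, it is not set against those of the long lists.

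Peaks of different libraries at the same member coincided. Over the 12 members bound in at least 2 libraries, pairs of libraries were counted gene by gene. This gave 56 pairs, of which Smarca4 and Pbrm1 gave 15 each. All 56 had peaks that overlapped by at least 1 bp, and all 56 still did at 50% of the shorter peak. The same share over all bound protein-coding genes is not given, so this is not a trait of the members. The summit of 4 of the 17 bound members (23.5%: Pbrm1, Arid2, Brd9 and Smarcd1) lay within 1 kb of another protein-coding gene end, against 32.0% of all 3264 bound protein-coding genes.

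The promoter windows of genes with and without an end peak were searched for the motifs, although an end peak need not lie inside the window. RefSeq windows were found for 37 of the 46 members, all but Smarce1, Bcl7a, Ss18, Arid2, Chd3, Mbd2, Hdac1, Mta3 and Baz1a. The E-box or its variant was in the window of 8 of 14 members with an end peak (57.1%) and of 4 of 23 without (17.4%). Over all protein-coding genes the shares were 45.6% of 2705 with a peak and 16.3% of 14787 without. Median GC content of the windows was 68.8% in members with an end peak and 66.7% in members without, and 63.7% in all genes with an end peak and 55.0% in all genes without. The motifs are GC-rich, and the part of GC content in the motif shares was not tested, nor was the difference between bound and unbound members. The 3 bound members with the E-box itself were Pbrm1, Bcl7b and Bcl7c, all printed above. Windows of Smarcd3, Smarca5, Mta1 and Rbbp4 hold a motif and had no peak. Those of Mbd3, Smarcc1, Arid1a, Brd9, Hdac2 and Smarcb1 hold neither motif, although these genes had an end peak. Ino80 and Gatad2a, with peaks near a start inside the span, also have neither. A motif match is a description of the letters in a window and shows no binding.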

How the data were processed

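MYC chromatin immunoprecipitation was compared in 9 libraries, 3 per Arid1a genotype, grouped by their titles; 9 inputs have no separate list used here. Per the submitters' processing notes, the build was mm10 and the tools were MACS2 2.0.10.20131216, Bowtie2 2.2.3, HOMER and Picard. Each library has its own list, and no source used here gives the calling threshold. Per peak, the deposited lists hold a score, a fold (the ratio of signal to background at the summit, by the authors), the summit's offset, and deposited values of −log10 q and −log10 p. Folds are the authors' own and only describe or rank peaks within a list.

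Gene spans, annotated starts and promoter windows came from RefSeq tables of GRCm38.p6 (mm10). Fold and −log10 p were solved together for summit reads, background and input depth, for 98.92% of 10376 peaks. The solving was tested on simulated data. A further calculation, not tested in that way, scaled reads and background to the shallowest input and kept −log10 p of at least 10. Depth gives 7.8 to 15.2 MYC reads per kb; intervals are exact Clopper-Pearson and cover counting error only. Tests were exact permutations (Python 3.11.15, scipy 1.17.1) of log10 genes bound. Alternatives changed the window, the limits, the part of the gene, the libraries and the block. Every member with a peak was named, those in at least 3 libraries with all values. The members and lists were chosen with earlier results of these data known.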

Additional observations from a re-analysis of the deposited data

How the results depend on the processing

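Among the recomputed values, 34 moved by over 1.5 times and 2 changed sign. Many of the rest could not change, such as a pair of genotypes with a library of the third left out, and no setting could bring an exact p under 0.05. Members bound in at least 2 libraries (12 as reported) numbered 20 with a 5 kb window (11.0% of all genes), 4 after thinning to the shallowest input (3.81%), and 5 to 12 with 1 library left out (5.14 to 8.03%). Of SWI/SNF genes (8 as reported), 5 met the count at 250 bp, at −log10 q of at least 5, at −log10 p of at least 10 and without Het replicate 2. With a 5 kb window the count was 5 for NuRD, 2 for INO80 type and 1 for ISWI. For at least 2 Het and 0 Homo libraries (2 as reported), it was 1 at 250 bp, 5 at 5 kb, and 1 to 4 with 1 library left out. For at least 2 WT and 0 Homo libraries (4 as reported), it was 2 at 250 bp, 8 at 5 kb, 1 after thinning, and 0 to 6 with 1 library left out. For at least 2 Het and 0 WT libraries (0 as reported), it was 1 after thinning. For at least 2 WT and 0 Het libraries (1 as reported), it was 2 at 5 kb, 0 at −log10 q of at least 5, at fold of at least 5, at −log10 p of at least 10 and after thinning, and 0 to 2 with 1 library left out. The causes were not tested. In log10 genes bound, Homo minus Het was -1.364 to -0.752, Homo minus WT -1.514 to -0.371 and Het minus WT -0.429 to 0.714 with 1 library left out; the -0.429 came without WT replicate 1, and again without WT replicate 1 and Homo replicate 2 together, a setting chosen after seeing the data. With the replicate number as a block the differences were the same (-1.084, -0.829 and 0.255) and the exact permutation p was 0.5, 0.5 and 0.75, where 0.25 is the smallest possible. The correlations do not decide whether libraries were paired by replicate number. Each library's values with the 3 libraries of another genotype held both signs, so mixed signs say nothing on pairing. Het replicate 3, for example, had 0.3, -0.39 and 0.32 with WT replicates 1, 2 and 3. Over 3264 genes, same-numbered libraries correlated at -0.28 to 0.32 and 3 of 9 pairs were over 0.1. Libraries of different number correlated at -0.39 to 0.3 and 5 of 18 pairs were over 0.1. The lowest folds listed at the lowest background were higher in the 3 Homo lists than in any other. They rest on 2 to 20 peaks per Homo list and on 34 to 255 in the other lists. The part of depth or of these peak numbers in this was not tested. Homo replicate 1, with 3.69 input and 8.69 MYC reads per kb, listed 112 peaks, and Het replicate 2, with 3.63 and 7.8, listed 1869. The Homo replicate 1 depth rests on 2 peaks, and 1 such pair of libraries gives no answer on depth.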
